A study of Homo sapiens with 8 samples.

Results

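Transforming growth factor beta (TGF-beta) signalling was read through 9 genes in 4 human prostate cancer cell lines. The genes encode a pair of ligands (TGFB1, TGFB2), 3 receptors (TGFBR1, TGFBR2, TGFBR3), the signal transducer SMAD3, the latent ligand store LTBP1 and a pair of classical target genes (TGFBI, CCN2, the latter long known as CTGF). They were taken by current gene symbol from 22395 genes that had a probe set with a single symbol. Each of the 9 was measured by 1 probe set, so no choice between probe sets was needed.

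The lines were C4-2B, a bone-tropic derivative of LNCaP, DU145 from a brain metastasis, PC3 from a bone metastasis and VCaP from a vertebral metastasis. Each line was transfected with non-targeting siRNA (the control) or with siRNA against DNAPK, whose catalytic subunit is encoded by PRKDC, and was harvested after 48 hours. There was 1 array for each siRNA in each line, 8 in all, with no repeat culture, and C4-2B and PC3 were kept in RPMI1640 while DU145 and VCaP were kept in DMEM. The study looked for pathways whose transcription depends on DNA-PK, and its title names Wnt signalling.

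TGF-beta ligands are secreted in a latent form that LTBP proteins tether to the extracellular matrix until integrins, proteases or thrombospondin release it. Free ligand binds TGFBR2, often presented by the co-receptor TGFBR3 (betaglycan), and TGFBR2 then activates TGFBR1, which phosphorylates SMAD2 and SMAD3. With SMAD4 these enter the nucleus and act on target genes, together with other factors such as AP-1 or the YAP-bound TEAD proteins. In prostate epithelium the pathway is known to restrain growth, and in advanced carcinoma it is known for its part in invasion and bone metastasis.

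Signals are log2 values after RMA (robust multi-array average), in which 1 unit is a 2-fold difference. Differences are DNAPK siRNA minus control within a line. Genes whose mean over 8 arrays lay above the 25th percentile of all genes (2.51) were tested, 16796 in all, and each of the 9 genes was among them. No detection call was used, so a signal near 2.51 is not evidence that a gene was expressed. A probe set sums over the isoforms of a gene, and fewer cells that express a gene and less of its RNA per cell cannot be told apart.

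PRKDC, the siRNA target, had differences of -2.53 for C4-2B, -1.99 for PC3, -1.08 for DU145 and -0.62 for VCaP, so the depletion was weakest in VCaP. Among line markers on the control arrays, KLK3 (PSA) read 10.12 in C4-2B against 3.68 to 4.46 in the other lines, VCaP included although it is known to express PSA. ERG read 8.57 in VCaP, which carries a TMPRSS2-ERG fusion, and at most 3.52 elsewhere. TMPRSS2, a serine protease gene of prostate epithelium, read 9.56 for C4-2B, 9.03 for VCaP and 6.72 for PC3 but 2.18 for DU145, where its difference was 1.20. The mesenchymal filament gene VIM read 8.19 for DU145, 7.82 for PC3, 4.29 for C4-2B and 2.22 for VCaP, and the epithelial cadherin gene CDH1 read 9.21 to 10.38 in all of them. Of the markers of other cell types, 4 of 5 fibroblast, 1 of 3 endothelial and 5 of 6 immune genes had means below the filter. Those above it were COL1A1, CDH5, KDR and CD68, and CD68 read 7.73 for DU145 and 7.40 for PC3 against 4.99 for C4-2B and 4.61 for VCaP. The mean level of each of these 3 lists lay between 2.34 and 3.35 on every array.

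The promoters of CCN2, TGFB2 and TGFBI, picked for their signals in these data, are shown with the motifs they hold. Any link between these motifs and the signals was not tested. CCN2 had opposite differences in DU145 and PC3, TGFB2 was far higher in those lines than in C4-2B and VCaP, and TGFBI was high in DU145 alone. Each stretch is the 250 bases before the RefSeq start (GRCh38.p14), 5′ to 3′ on the strand of the gene. Capitals mark CAGAC, the core that SMAD proteins bind, and GGAATG, the core that TEAD proteins bind, either of them as written or on the opposite strand (GTCTG and CATTCC). The windows are chr6:131951373-131951622 on the minus strand for CCN2, chr1:218345086-218345335 on the plus strand for TGFB2 and chr5:136028738-136028987 on the plus strand for TGFBI.
CCN2: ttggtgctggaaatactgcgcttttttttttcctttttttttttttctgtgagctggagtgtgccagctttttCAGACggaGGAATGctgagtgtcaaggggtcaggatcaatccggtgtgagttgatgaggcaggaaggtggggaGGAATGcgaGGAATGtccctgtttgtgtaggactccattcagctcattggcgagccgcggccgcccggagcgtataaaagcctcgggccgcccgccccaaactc
TGFB2: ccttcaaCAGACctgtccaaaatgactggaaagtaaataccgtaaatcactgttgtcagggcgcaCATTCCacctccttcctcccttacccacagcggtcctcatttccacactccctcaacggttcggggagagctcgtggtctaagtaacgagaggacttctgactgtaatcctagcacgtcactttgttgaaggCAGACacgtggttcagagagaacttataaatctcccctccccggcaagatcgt
TGFBI: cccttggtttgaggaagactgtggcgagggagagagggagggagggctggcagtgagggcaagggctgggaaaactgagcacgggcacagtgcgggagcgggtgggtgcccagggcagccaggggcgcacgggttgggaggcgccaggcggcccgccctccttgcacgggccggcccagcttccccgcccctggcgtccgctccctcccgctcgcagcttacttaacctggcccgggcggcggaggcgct

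In the CCN2 window CAGAC began 177 bases before the start and GGAATG began 169, 104 and 95 bases before it, with no overlap between motifs. TGFB2 held CAGAC at 243 and 53 bases and CATTCC at 185 bases before its start, and TGFBI held neither motif. RefSeq windows were matched for all 9 genes, 23 windows in total because several genes have more than 1 start. TGFB1, TGFBR2 and TGFBR3 held neither motif in any window, LTBP1 held CAGAC in 3 of 3 windows and SMAD3 in 2 of 5, and TGFBR1 held CAGAC in 4 of 8 and GGAATG in 1 of 8. Over all 35116 promoter windows of the same length, 38.0% held CAGAC, 11.9% held GGAATG, 4.71% held both and 0.0826% held GGAATG at least 3 times. These matches describe letters and not binding, and the absence of a match covers only these windows.

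Most of the 9 genes differed more between lines than between the siRNAs within a line. TGFB1, TGFB2, TGFBR2 and SMAD3 were higher in DU145 and in PC3 than in C4-2B and in VCaP, in all 4 contrasts between those lines (limma, adjusted p at most 6.79e-05). That made 4 of 9 genes, where 5.24% of all genes tested did the same. SMAD3 had a mean below the filter over C4-2B and VCaP and passed the filter only through the lines where it was high, as did 87 of the 880 genes, so its place in the count was partly fixed by the filter; without a filter the same 4 genes were called, with 3.72% of 22395 genes. TGFBR1 had a narrow range, LTBP1 and CCN2 were highest in PC3, TGFBI was high only in DU145, and TGFBR3 was lowest in VCaP. These tests take the spread left after line and treatment as the error, so they compare these cultures.

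**Figure D1:**
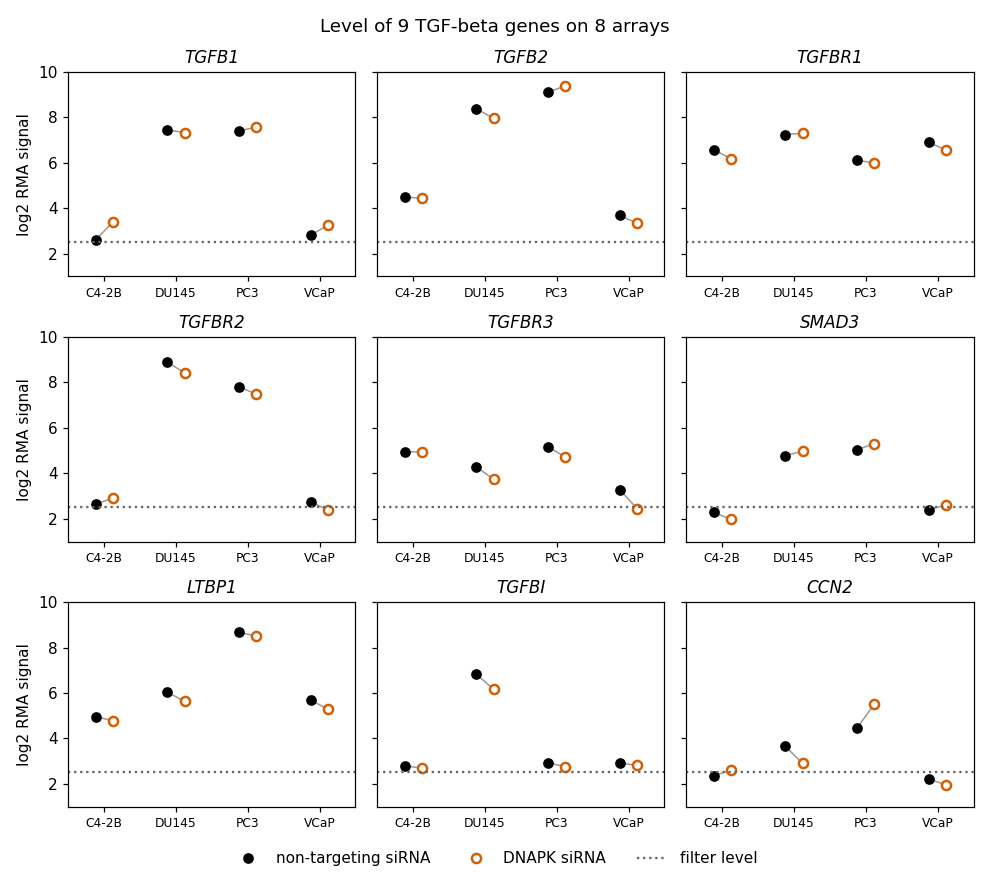
Log2 RMA signal (y axis) of each gene in the 4 lines (x axis), with filled points for non-targeting siRNA, open points for DNAPK siRNA and a dotted line at the filter level of 2.51. TGFB1, TGFB2, TGFBR2 and SMAD3 stand apart in DU145 and PC3, and TGFBI stands at 6.83 and 6.16 in DU145 against at most 2.92 elsewhere.

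Of the ligands, TGFB1 (probe set 16872551) read 7.44 and 7.33 for DU145 (control, then DNAPK siRNA), 7.41 and 7.56 for PC3, 2.60 and 3.39 for C4-2B, and 2.82 and 3.26 for VCaP. The 4 arrays of DU145 and PC3 lay far above the 4 others with no overlap. The mean of PC3 exceeded that of VCaP by 4.45 (95% interval 3.92 to 4.98, limma adjusted p = 7.40e-06). PC3 and DU145 differed by 0.10 (-0.43 to 0.63, adjusted p = 0.778), and C4-2B and VCaP by -0.0448 (-0.57 to 0.48, adjusted p = 0.900).

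TGFB2 (probe set 16677556), the second ligand, read 9.10 and 9.39 for PC3, 8.38 and 7.95 for DU145, 4.50 and 4.43 for C4-2B, and 3.68 and 3.34 for VCaP. Every neighbour in that order differed, with PC3 above DU145 by 1.08 (adjusted p = 0.00665), DU145 above C4-2B by 3.70 (adjusted p = 1.38e-05) and C4-2B above VCaP by 0.96 (adjusted p = 0.00975, all limma). The arrays of the 4 lines did not overlap.

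Among the receptors, TGFBR2 (probe set 16938562), which binds the ligand first, read 8.90 and 8.42 for DU145, 7.82 and 7.47 for PC3, 2.65 and 2.90 for C4-2B, and 2.74 and 2.38 for VCaP. DU145 exceeded PC3 by 1.02 (adjusted p = 0.00941) and PC3 exceeded C4-2B by 4.87 (adjusted p = 4.29e-06). C4-2B and VCaP overlapped near the filter level and differed by 0.21 (-0.28 to 0.70, limma adjusted p = 0.476).

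TGFBR1 (probe set 17087480), the kinase that phosphorylates the SMADs, read 7.24 and 7.30 for DU145, 6.90 and 6.55 for VCaP, 6.58 and 6.18 for C4-2B, and 6.12 and 5.98 for PC3. All 8 arrays fell between 5.98 and 7.30, so no line was near the filter. DU145 exceeded VCaP by 0.54 (limma adjusted p = 0.0414), a call lost after median centring (0.45, adjusted p = 0.0761). C4-2B and VCaP were not called different (-0.35, interval -0.76 to 0.06, limma adjusted p = 0.166), nor were PC3 and C4-2B (-0.33, interval -0.74 to 0.08, limma adjusted p = 0.189).

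TGFBR3 (probe set 16689546) read 5.17 and 4.71 for PC3, 4.95 and 4.94 for C4-2B, 4.27 and 3.75 for DU145, and 3.27 and 2.44 for VCaP. PC3 and C4-2B had the same mean of 4.94, with an interval of -0.49 to 0.49 for their difference. VCaP lay below each other line, by 2.09 against C4-2B (adjusted p = 3.35e-04) and by 1.16 against DU145 (limma adjusted p = 0.00362). The co-receptor thus followed another order than the ligands and TGFBR2.

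SMAD3 (probe set 16802251) read 5.04 and 5.31 for PC3, 4.78 and 4.97 for DU145, 2.40 and 2.62 for VCaP, and 2.29 and 1.97 for C4-2B. Its signals in C4-2B and VCaP lay between 1.97 and 2.62, around the filter level of 2.51, and it passed the filter through PC3 and DU145. PC3 exceeded VCaP by 2.67 (limma adjusted p = 3.64e-05), while PC3 and DU145 differed by 0.31 (-0.14 to 0.75, adjusted p = 0.279).

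LTBP1 (probe set 16878947), which stores the latent ligand in the matrix, read 8.67 and 8.50 for PC3, 6.03 and 5.64 for DU145, 5.68 and 5.28 for VCaP, and 4.96 and 4.78 for C4-2B. PC3 exceeded DU145 by 2.75 (limma adjusted p = 2.58e-05). DU145 and VCaP overlapped, with a difference of 0.35 (-0.0209 to 0.73, adjusted p = 0.118), and VCaP exceeded C4-2B by 0.61 (adjusted p = 0.0214).

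TGFBI (probe set 16989496), a secreted matrix protein induced by TGF-beta, read 6.83 and 6.16 in DU145. The other arrays read 2.80 and 2.69 for C4-2B, 2.92 and 2.76 for PC3, and 2.91 and 2.82 for VCaP. PC3, which like DU145 had high TGFB1, TGFB2 and TGFBR2, differed from C4-2B in TGFBI by 0.09 (interval -0.36 to 0.54, limma adjusted p = 0.756). DU145 exceeded PC3 by 3.66 (adjusted p = 1.67e-05).

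CCN2 (probe set 17023646), a matricellular growth factor, read 4.47 and 5.51 for PC3, 3.65 and 2.90 for DU145, 2.35 and 2.60 for C4-2B, and 2.21 and 1.95 for VCaP. The means in C4-2B (2.48) and VCaP (2.08) lay below the filter level, and CCN2 passed the filter through PC3 and DU145. PC3 exceeded DU145 by 1.72 (limma adjusted p = 0.0116). DU145 exceeded VCaP by 1.20 (adjusted p = 0.0344) and C4-2B by 0.80, which did not pass (-0.07 to 1.67, adjusted p = 0.141). The other target was therefore highest in a different line than TGFBI.

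Counted by contrast, 8 of 9 genes differed between DU145 and C4-2B (34.5% of all genes tested did), 6 between PC3 and C4-2B (36.2%), 8 between DU145 and VCaP (41.7%) and 8 between PC3 and VCaP (41.1%). Between PC3 and DU145, 7 of 9 differed (30.5% of all genes), and between C4-2B and VCaP 3 of 9 (34.7%). SMAD3 and CCN2 passed the filter only through DU145 and PC3, so their part in these counts was partly fixed by the filter. With no filter 40 of the 54 comparisons of level were called, as with it. Over the 8 arrays TGFB1, TGFB2, TGFBR2 and SMAD3 had Pearson r from 0.95 to 0.98 with one another. They were called above for being high in the same lines, so a high r among them was largely fixed in advance. CCN2 had 0.91 with LTBP1 and 0.89 with TGFB2, whereas TGFBR1 had 0.07 with TGFB1 and -0.48 with LTBP1. These correlations, and those below, describe 8 arrays that come in 4 pairs of 1 line each.

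Among all other genes tested, LAMB3 (r = 0.998), a laminin chain, and SLCO1B3 (0.998) had the pattern over 8 arrays most like that of TGFB1. AHR and CUEDC1 (both 0.996) were nearest to TGFB2, ANXA2 (0.997) and PAM (0.996) to TGFBR2, and CLTC (0.998) and the membrane-bound metalloproteinase gene MMP14 (0.997) to SMAD3. TGFBI was matched by the vitamin D hydroxylase gene CYP24A1 and by NMRAL2P (both 0.997), CCN2 by MYPN and the interferon-induced gene IFI6 (both 0.989), and LTBP1 by AP3M1 (0.991) and TRIM9 (0.990). For TGFBR1 the nearest were RIMS4 (0.995) and MIER1 (0.992), and for TGFBR3 BCL6 (0.978) and KMT5C (0.972). These pairs are the highest r among 16796 genes tested, of which 880 were called higher in DU145 and PC3 in all 4 contrasts. Shared regulation was not tested.

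With DNAPK siRNA none of the 9 genes passed the test over the 4 lines, and neither did any other gene (limma, 0 of 16796 genes, 0%, with 1208 at an unadjusted p under 0.05). PRKDC, the siRNA target, was not called either (mean difference -1.56, limma adjusted p = 0.688). The lack of calls therefore does not show that a gene was unaffected. TGFBR3, LTBP1 and TGFBI lay below their control in each of the 4 lines, and 5.89% of all genes did so. With 4 pairs the exact 2-sided sign-flip permutation p cannot go under 0.13 (rounded), which is the value for these 3 genes. None of the 9 lay above its control in each line, and 11.5% of all genes did.

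**Figure D2:**
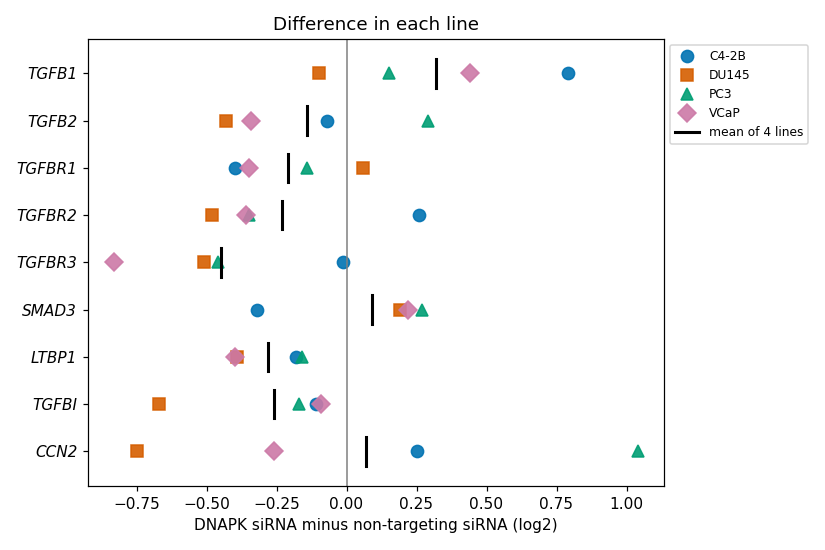
Log2 difference between DNAPK siRNA and non-targeting siRNA (x axis) for each gene (y axis), with 1 symbol for each line and a black bar at the mean of 4 lines. TGFBR3, LTBP1 and TGFBI have all symbols below 0, and CCN2 spans -0.75 in DU145 to 1.04 in PC3.

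TGFBR3 had differences of -0.0110 for C4-2B, -0.46 for PC3, -0.51 for DU145 and -0.83 for VCaP, a mean of -0.45 ± 0.34 (SD, n = 4 lines). C4-2B, the line with the lowest PRKDC difference, was near 0, and VCaP, with the PRKDC difference nearest to 0, had the lowest value, on a signal that went to 2.44. Any relation of these values to PRKDC depletion was not tested. The limma interval ran from -0.80 to -0.10 (unadjusted p = 0.0174, adjusted p = 0.688).

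LTBP1 had -0.18 for C4-2B, -0.16 for PC3, -0.39 for DU145 and -0.40 for VCaP, a mean of -0.28 ± 0.13 (SD, n = 4 lines; limma interval -0.55 to -0.0210, adjusted p = 0.688). It had the smallest spread between lines of the 9 genes, with DU145 and VCaP lower than C4-2B and PC3.

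TGFBI had -0.67 in DU145, the line that expresses it, and -0.11, -0.17 and -0.09 in C4-2B, PC3 and VCaP, where its signal lay near the filter. The mean was -0.26 ± 0.27 (SD, n = 4 lines; limma adjusted p = 0.693) and -0.12 without DU145. In DU145 the DNAPK siRNA array held 62.9% of the control signal.

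TGFBR2 had -0.48 for DU145, -0.35 for PC3 and -0.36 for VCaP but 0.26 for C4-2B, a mean of -0.23 ± 0.33 (limma adjusted p = 0.731), which was -0.40 without C4-2B and -0.15 without DU145. In both lines with a clear signal it lay below the control. TGFBR1 had -0.40 for C4-2B, -0.35 for VCaP, -0.14 for PC3 and 0.06 for DU145 (-0.0303 with cyclic loess), a mean of -0.21 ± 0.21 (adjusted p = 0.720).

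TGFB1 had 0.79 for C4-2B and 0.44 for VCaP, on signals that began at 2.60 and 2.82, and 0.15 for PC3 and -0.10 for DU145, where it is well expressed. The mean was 0.32 ± 0.38 (limma adjusted p = 0.692) and 0.16 without C4-2B. TGFB2 had -0.43 for DU145, -0.34 for VCaP, -0.07 for C4-2B and 0.29 for PC3, a mean of -0.14 ± 0.32 (adjusted p = 0.823). That mean was -0.28 without PC3, -0.07 without VCaP and -0.0390 without DU145. SMAD3 had 0.19 for DU145, 0.27 for PC3 and 0.22 for VCaP but -0.32 for C4-2B, a mean of 0.09 ± 0.27 (adjusted p = 0.881), which was 0.23 without C4-2B, 0.0468 without VCaP and 0.0297 without PC3.

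CCN2 had the widest spread, with 1.04 for PC3, 0.25 for C4-2B, -0.26 for VCaP and -0.75 for DU145, a mean of 0.07 ± 0.76 (SD, n = 4 lines; limma adjusted p = 0.957). The mean was -0.25 without PC3, 0.34 without DU145, 0.18 without VCaP and 0.00990 without C4-2B. In PC3 the DNAPK siRNA array held 206% of the control signal and in DU145 59.5%. The PC3 value was the only one of 36 differences past 1 in size, and it read 0.97 after median centring. Of all genes tested, 1.07% were past 1 for PC3. The share was 0.583% for C4-2B, 1.12% for DU145 and 3.70% for VCaP, and 0 of the 9 genes were past it in each of these 3 lines.

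By line, the median difference of the 9 genes was -0.43 in DU145 (against 0.0453 over all genes tested) and -0.34 in VCaP (against -0.00316). It was -0.07 in C4-2B (against 0.0414) and -0.14 in PC3 (against 0.0368). The differences of all genes tested spread more widely in VCaP (SD 0.462) than in DU145 (0.334), PC3 (0.327) and C4-2B (0.288). The PRKDC difference was -1.08 in DU145 and -0.62 in VCaP, both kept in DMEM. It was -2.53 in C4-2B and -1.99 in PC3, both kept in RPMI1640. Any relation of these medians to PRKDC depletion or to the medium was not tested. Within a line there is 1 array per siRNA, so the siRNA cannot be told apart from the culture.

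The response of DU145 and PC3 was compared with that of C4-2B and VCaP, which were grouped as androgen receptor positive lines. The part of that receptor in any difference between these pairs of lines was not tested. None of the 9 genes passed (limma, 0 of 16796 genes, 0%, with 621 at an unadjusted p under 0.05). The largest difference was that of TGFB1, with a mean response of 0.0218 in DU145 and PC3 and 0.61 in C4-2B and VCaP, a difference of -0.59 (-1.22 to 0.0361, limma adjusted p = 0.991). CCN2 had a difference of 0.15 with an interval of -1.13 to 1.43, since DU145 and PC3 went opposite ways.

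Beyond the 9 genes, 87 other genes of the pathway and its targets were listed, 83 had a probe set with 1 symbol and 80 lay above the filter. None passed over 4 lines (limma, 0 of 80, with 8 at an unadjusted p under 0.05), 12 were lower in each line (5.89% of all genes tested were) and 3 higher (11.5% of all genes). The target list shares CCN1, ANKRD1 and IGFBP3 with the YAP and TEAD list.

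Genes of ligand storage and activation had a median of the mean differences of -0.23 over 11 genes, with 9 of them below 0, against 0.0274 over all genes tested. By line their median was -0.37 in VCaP, -0.34 in DU145 and -0.17 in C4-2B but 0.0463 in PC3. THBS1, which encodes the activator thrombospondin 1, had -0.75 for C4-2B, -0.91 for DU145, -1.14 for VCaP and 0.16 for PC3. It had a mean of -0.66 ± 0.57 (limma adjusted p = 0.688). ITGB8, an integrin chain that activates latent ligand, had -0.11, -0.79, -0.82 and -0.07 in the same order, a mean of -0.45. The fibrillin gene FBN1 had a mean of -0.42, LTBP3 one of -0.35, and FURIN, the protease that cuts the ligand precursor, was lower in each line with -0.29. In PC3 8 of the 11 genes lay above 0, but the list's median there was near the 0.0368 of all genes tested. LTBP2, LTBP3, LTBP4, FBN1 and ITGAV lay between 0.0261 and 0.07 in PC3. ITGB6, another activating integrin chain, read 5.19 and 6.54 on the PC3 arrays (named after its value was seen).

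The other receptors had a median of 0.0399 over 7 genes (-0.0175 with cyclic loess, -0.00837 without C4-2B and -0.0111 without PC3), with 0.21 for the co-receptor gene ENG, -0.10 for ACVR1C, 0.09 for ACVR1 and -0.08 for ACVRL1. SMADs and regulators had a median of -0.0198 over 20 genes (0.0144 without DU145). SMAD4 (mean -0.18) and SMAD2 (-0.16) lay below 0 in each line, as did the ubiquitin ligase gene SMURF1 (-0.15). Some of these values were next to 0, with -0.00699 for SMAD2 in PC3, -0.00974 for SMURF1 in DU145 and -0.0312 for SMAD4 in C4-2B. The deubiquitinase gene USP4 (0.18) lay above 0 in each line. The inhibitory SMAD6 had -0.79 for DU145, -0.53 for PC3 and -0.40 for C4-2B but 0.85 for VCaP.

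TGF-beta target genes had a median of -0.0139 over 26 genes, 16 below 0, which was -0.14 without PC3 and 0.0178 without C4-2B. TAGLN, a smooth muscle actin-binding protein, had -1.04 for C4-2B, -1.29 for DU145, -0.21 for PC3 and -0.37 for VCaP, a mean of -0.73 ± 0.52 (limma adjusted p = 0.688). FN1 (fibronectin) had a mean of -0.64 ± 0.15, SNAI2 one of -0.45 ± 0.68 and the transglutaminase gene TGM2 one of -0.38 ± 0.39. Of 26 genes, 5 were lower in each line (FN1, COL4A1, TAGLN, ITGA2 and TSC22D1) and 2 higher (PDGFB and ADAM12), against 5.89% and 11.5% of all genes. The ITGA2 value in PC3 was -0.00261, next to 0. YAP and TEAD target genes had a median of -0.00595 over 19 genes, which was -0.14 without PC3 and 0.08 without DU145. Of these the phosphatase gene PTPN14 (-0.55 ± 0.25) and F3, which encodes tissue factor (-0.50 ± 0.52), were lower in each line, and CCDC80 (-0.34) and NT5E (-0.28) in 3 of 4.

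Some other genes of the lists also had opposite differences in DU145 and PC3, and those named next were picked for that pattern. PMEPA1, a SMAD-induced inhibitor of the pathway, read 5.54 and 4.80 for DU145 (control, then DNAPK siRNA) and 5.51 and 6.64 for PC3. SKIL, a SMAD co-repressor induced by TGF-beta, read 7.02 and 6.12, then 6.89 and 7.54, in the same order. SMAD7, the inhibitory SMAD, had -0.59 in DU145 and 0.36 in PC3, JUNB -0.59 and 0.46, ANKRD1 -0.74 and 0.68 and SNAI2 -0.88 and 0.43. Other negative regulators were mixed. SMAD6 (-0.79 and -0.53), SMURF2 (-0.21 and -0.10) and the co-repressor gene TGIF1 (0.0164 and 0.0159) did not share the pattern. BAMBI (-0.14 and 0.30) and the co-repressor gene SKI (-0.14 and 0.17) had it in smaller size. Of 80 other pathway genes, 30 were lower in DU145 and higher in PC3, and so were 3 of the 9 genes (TGFB1, TGFB2 and CCN2), while 23.1% of all genes tested were. The direction counted is that of CCN2 itself, and no count was made of the reverse direction. These counts therefore describe the data and give the pattern no support. The difference between these lines was not tested, with 1 array per siRNA in each, and the PRKDC difference was -1.08 in the former and -1.99 in the latter.

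**Figure D3:**
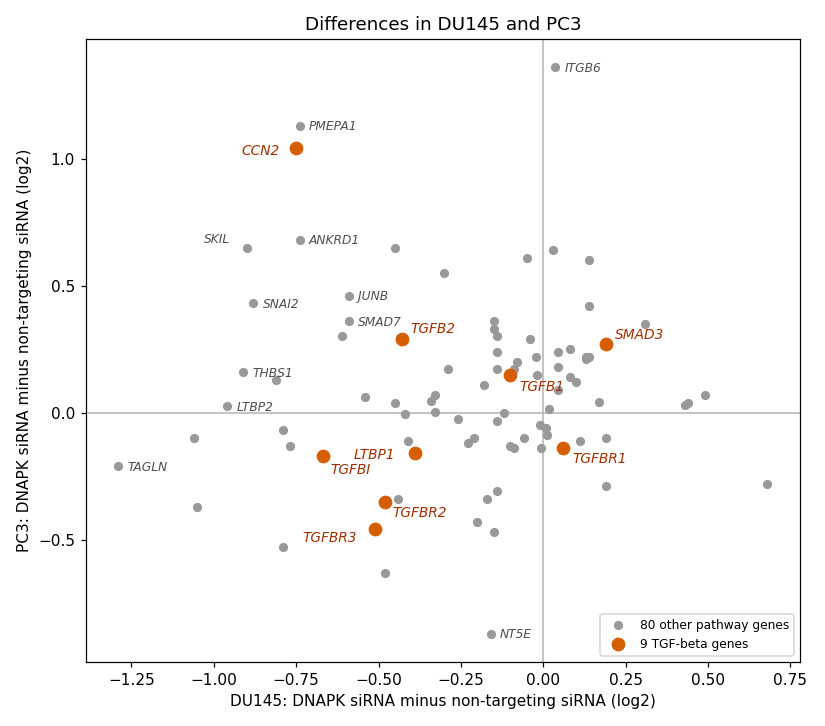
Log2 difference in DU145 (x axis) against that in PC3 (y axis) for the 9 TGF-beta genes (orange) and 80 other pathway genes (grey), some labelled after their values were seen. CCN2 lies at -0.75 and 1.04 beside PMEPA1 at -0.74 and 1.13, while TGFBI, LTBP1, TGFBR2 and TGFBR3 lie below 0 on both axes.

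The levels of the listed genes also divided the lines. Of the YAP and TEAD target genes 12 of 19 (63.2%) were called higher in DU145 and PC3 than in C4-2B and VCaP in all 4 contrasts, among them AXL, MYOF, NT5E, CCN1 and ANKRD1. Of the 12, ANKRD1, NT5E and RBMS3 passed the filter only through DU145 and PC3, so the share is partly fixed by the filter. On the control arrays AXL, a receptor kinase, read 10.10 for DU145 and 8.88 for PC3 against 3.64 for C4-2B and 2.74 for VCaP. Of the TGF-beta target genes it was 8 of 26 (30.8%), of SMADs and regulators 4 of 20 (SMURF1, SMURF2, TGIF1 and USP11), of storage genes 1 of 11 (LTBP2) and of other receptors 1 of 7 (ACVR1), against 5.24% of all genes tested. The 8 target genes include CCN1 and ANKRD1, which count in both lists, and the filter limit on ANKRD1 holds here too. None of the 80 genes was lower in DU145 and PC3 in all 4 contrasts, and 3.79% of all genes were. VIM and CD68 were higher in the same lines, and their part in these levels was not tested.

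**Figure D4:**
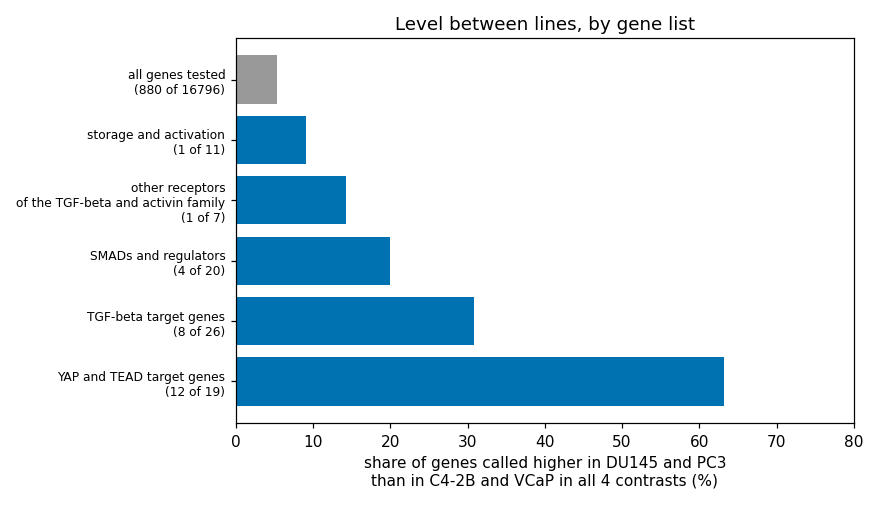
Share of genes in each list (x axis, percent) called higher in DU145 and PC3 than in C4-2B and VCaP in all 4 limma contrasts, with the count in brackets on the y axis and all genes tested in grey. The share runs from 9.09% for storage and activation genes to 63.2% for YAP and TEAD target genes, against 5.24% of all genes.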

How the data were processed

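Total RNA (400 ng) was labelled with a whole-transcript kit for Affymetrix arrays, per the labels' protocols. Each deposited value is the log2 signal of a probe set, made by the authors with oligo and RMA, per the submitters' processing notes, with no version. RMA makes the arrays' distributions alike, so a difference is relative to the bulk of transcripts, and array medians lay between 2.94 and 2.99. Of 53617 probe sets, 23871 had 1 gene symbol, 1842 several, and 27904 were unnamed here; symbols were updated by Entrez identifier for 22574. No source used here names the genome build behind the array.

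limma 3.58.1 (R 4.3.3; lmFit, eBayes) was fitted over 16796 genes with cell line as a blocking term; p-values were 2-sided and adjusted by Benjamini-Hochberg across every gene tested, and calls were made at 0.05. The residual had 3 degrees of freedom (7.55 with the prior). Contrasts between lines came from the same additive fit, and the response of DU145 and PC3 against C4-2B and VCaP from a fit with 2. Arrays are paired by line: with group means removed, arrays of a line correlated at 0.864 to 0.918 and arrays of different lines at no more than 0.0135. The number of arrays limits the precision, and p-values measure the spread between single cultures of 4 lines. The fits were tested on simulated data.

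Named are the 9 genes, PRKDC, the line markers, the 4 genes of each list with the largest mean difference, and the 2 genes most correlated with each of the 9. Any other gene was picked once its values had been seen. The 9 genes and the lists were chosen with earlier results of these data known. Listed genes and markers with no single-symbol probe set in the tables used were not analysed here. Alternatives were median centring, cyclic loess, no filter, a filter at the 50th percentile, the mean of all probe sets, eBayes with a trend, no replicate block and leaving out each line.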

Additional observations from a re-analysis of the deposited data

Results flagged for a closer look

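In groups of 4 arrays or 4 differences, a value was singled out where its gap to the nearest other exceeded 0.83 of the range (Dixon's 95% value, which chance alone passes in about 1 group in 20; 27 groups were examined). TGFBI in DU145 was such a value among the control arrays (6.83) and among the DNAPK siRNA arrays (6.16), and so was its difference in DU145 (-0.67). The other was the difference of SMAD3 in C4-2B (-0.32), where its signal lay below the filter level.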

How the results depend on the processing

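No gene was called over 4 lines, or between pairs of lines, under any alternative that was run. The fit with no replicate block also gave 0 calls over 4 lines. Of 54 comparisons of level (9 genes, 6 pairs of lines) 40 were called, and 39 after median centring. With median centring 0 of 36 differences within a line were past 1, because CCN2 in PC3 read 0.97. No called value changed sign. The response of LTBP1 in DU145 and PC3 minus C4-2B and VCaP was 0.0108, or -0.0338 with median centring and -0.0361 with cyclic loess, and TGFBI in PC3 minus C4-2B was -0.0180 with median centring. The difference of TGFBR1 in DU145 was 0.06, or -0.0303 with cyclic loess. Leaving out a line gave CCN2 (0.07) a mean difference between -0.25 and 0.34, and the medians of 4 gene lists changed sign when a line was left out, at values between -0.0111 and 0.08. Of alternatives added after seeing the data, 3 genes (TGFBR3, LTBP1, TGFBI) stayed lower in every line with median centring (8.34% of all genes) and 4 with cyclic loess (TGFBR1 added, 8.45%), and 3 or 4 were lower in each remaining line when 1 line was left out (10.5% to 12% of all genes). The count of 4 genes higher in DU145 and PC3 was also 4 with median centring, cyclic loess, no filter and a trend, alternatives likewise added after seeing the data. At the 50th percentile filter SMAD3, TGFBI and CCN2 were not tested. With 1 array per siRNA in a line, signals near 2.51 limit what can be said of TGFB1, TGFBR2, SMAD3, TGFBI and CCN2 in C4-2B and VCaP. The same limit holds for TGFBI in PC3 (2.92 and 2.76). It also holds on the DNAPK siRNA arrays for TGFBR3 in VCaP (2.44) and CCN2 in DU145 (2.90).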
